A study of Mus musculus with 8 samples.

Results

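Nr4a1, Nr4a2, Nr4a3, Egr1, Egr2 and Egr3 are genes of transcription factors that cells switch on within minutes of a stimulus. They were chosen by symbol, and all 6 were found among the 32285 genes measured in each library. Expression was measured in single leukocytes of the mouse submandibular gland, a salivary gland, and of its draining lymph nodes, with 4 animals of each genotype, SS and control, aged about 12 weeks. SS is not spelled out in the labels, which give no strain or allele here. The cells were sorted for CD45, a surface protein of leukocytes.

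The labels list 8 samples, of which 4 are expression samples, 1 for each combination of genotype and tissue, and 4 are T cell receptor samples, not analysed here. The expression libraries, 4 in all, are numbered C1 to C4, and neither labels nor headers say which genotype or tissue each one holds. Their content was not used to assign them either, and they are described side by side, with no replicate and no test. Gland tissue was cut up and shaken in collagenase at 37 °C for 20 min, per the labels' protocols, while lymph nodes were only triturated. The sources used here do not say which libraries went through digestion.

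Total depth was 37902916 to 77819179 unique molecular identifiers (UMIs, each standing for 1 captured RNA molecule) per library, and 5067 to 8530 barcodes per library were kept. Pairs of libraries shared 31 to 85 barcode sequences, at most 1.43% of the smaller library. Doublets, barcodes holding more than 1 cell, were called by Scrublet and removed; the caller marked 2.96% of barcodes in C1 and 1.95% in C4 but 0 in C2 and 0.0234% in C3, so it did not work there and doublets remain in C2 and C3. Salivary transcripts, which leukocytes do not make, summed to 5553 to 16992 UMIs per 1000000 in each class described of C1 and C2 and to at most 1.03 in C3 and C4.

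The NR4A factors are orphan nuclear receptors: Nr4a1 (Nur77), Nr4a2 (Nurr1) and Nr4a3 (Nor1) bind DNA without a known hormone, and their activity follows the amount of protein made. In T cells they are induced by signalling through the T cell receptor, and sustained expression is known from exhausted and regulatory T cells. The EGR factors are zinc finger proteins induced through the MAP kinase pathway and serum response factor. Egr2 and Egr3 restrain T cell activation and are linked to anergy, and Egr1 is a general early response gene that is also high in stimulated macrophages. Both families respond to tissue digestion and mechanical stress as well as to antigen.

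The sequences before the start sites of the NR4A genes are shown because the 3 genes share a feature there. The lines give the 250 bases before the 1 start site listed for each gene in mouse GRCm38.p6 from RefSeq, 5′ to 3′ on the gene's strand. Capitals mark TGACG on either strand, the core of the cyclic AMP response element, bound by CREB and ATF factors. The windows are chr15:101266596-101266845 (plus strand) for Nr4a1, chr2:57124004-57124253 (minus strand) for Nr4a2 and chr4:48045055-48045304 (plus strand) for Nr4a3. The whole RefSeq span of Nr4a1 begins at 101253902 and that of Nr4a3 at 48045078. The Nr4a1 window and most of the Nr4a3 window thus lie inside the span of the gene, and sequence before its outermost end is not shown for Nr4a1.
Nr4a1: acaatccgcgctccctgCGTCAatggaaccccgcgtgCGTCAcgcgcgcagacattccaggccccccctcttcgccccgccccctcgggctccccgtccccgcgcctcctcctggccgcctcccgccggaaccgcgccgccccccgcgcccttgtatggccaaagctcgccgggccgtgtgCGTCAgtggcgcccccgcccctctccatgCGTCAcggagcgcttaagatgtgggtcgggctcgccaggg
Nr4a2: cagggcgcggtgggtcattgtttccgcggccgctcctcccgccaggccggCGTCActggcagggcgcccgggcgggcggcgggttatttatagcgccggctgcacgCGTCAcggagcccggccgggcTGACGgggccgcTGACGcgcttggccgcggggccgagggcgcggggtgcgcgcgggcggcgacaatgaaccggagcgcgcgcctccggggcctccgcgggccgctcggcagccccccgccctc
Nr4a3: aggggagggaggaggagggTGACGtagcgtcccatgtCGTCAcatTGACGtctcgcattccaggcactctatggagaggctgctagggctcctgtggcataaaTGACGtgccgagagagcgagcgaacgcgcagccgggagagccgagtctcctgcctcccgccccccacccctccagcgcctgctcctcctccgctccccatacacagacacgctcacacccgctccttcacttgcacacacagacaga

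Each of the 3 windows held 4 matches to TGACG, counting both strands. Of 32851 windows of the same length before the start sites of 27025 genes, 17.8% held at least 1 match and 0.137% held at least 4. This cut of 4 is the count found in the 3 windows themselves. No window of the 3 held the 9-letter EGR site GCGTGGGCG (in 0.536% of all windows) or the 8-letter NR4A half-site AAAGGTCA (in 1.34%). These are letter matches in the reference, not measured binding.

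For Egr2 5 start sites are listed, and a stretch of 30 bases before the most downstream one is shown for the CArG box, the element bound by serum response factor (capitals, first), and the TGACG match (capitals, second). It lies at chr10:67537794-67537823 on the plus strand, 136 to 107 bases before that start. The 250 bases before that start held 2 TGACG matches, of which 1 is shown. No window of Egr1 or Egr3 is shown.
Egr2: agtCCATATATGGgcagcgaCGTCAcgggt

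A CArG box was found in 1.47% of all windows and in none of the 3 NR4A windows. In the same build, Egr1 lies on chromosome 18 at 34861207 to 34864956 and Egr3 on chromosome 14 at 70077317 to 70082613. Each of the 6 genes is thus at a locus of its own.

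Barcodes were grouped by clustering without the 6 genes and without a list of 17 other early response genes. Levels below are CPM, a gene's UMIs scaled to a total of 1000000 in its class and library, and the range in parentheses is an exact 95% Poisson interval, which covers counting error only. T cells are called Cd3+ here because 2 of their clusters have leading genes that also mark other cells (Ly6c2, a monocyte marker, and Areg, an innate lymphoid marker). Cd3+ barcodes numbered 641 for C1, 3289 for C2, 7483 for C3 and 3760 for C4, and the 6 T markers summed to 3228 to 5749 CPM in them. Innate lymphoid markers, with Areg among them, summed there to 370, 49.7, 3.28 and 3.38 CPM in C1 to C4. Monocyte markers, with Ly6c2 among them, summed to 887, 388, 2399 and 590 CPM. NK-like barcodes were described in C1 (1397) and C2 (381), macrophage-like barcodes in C1 (2563) and C2 (496), and B-like barcodes in C1 (61), C3 (733) and C4 (1935). A class with under 50 barcodes in a library was left out.

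The classes were not made of the same clusters in each library. Cd3+ barcodes of C1 lay mostly in cluster 8, led by Il17a and Areg (434 barcodes), and those of C2 mostly in cluster 2, led by Pdcd1, Lag3 and Gzmk (2739). Those of C3 lay mostly in cluster 0, led by Gzmm and Ly6c2 (4544), and those of C4 in cluster 1, led by Igfbp4, Lef1 and Ccr7 (2976). Macrophage-like barcodes of C1 lay mostly in cluster 4 (2113), whose leading genes Il1a, Cxcl2, Atf3 and Hspa1a include inflammatory and stress genes, and those of C2 mostly in cluster 13 (298), led by Cxcl9 and Ccl8. The 61 B-like barcodes of C1 all lay in cluster 14, led by genes that include Mef2b, a factor of germinal centre B cells.

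Nr4a1 was high in C1 and C2 in all classes measured there and low in C3 and C4. In Cd3+ barcodes its level was 1283 CPM (1247 to 1321) for C1, 271 (264 to 279) for C2, 12.2 (11.3 to 13.1) for C3 and 41.2 (38.7 to 43.8) for C4. B-like barcodes gave 1698 CPM for C1, 17.4 for C3 and 72.4 for C4. NK-like barcodes gave 358 CPM in C1 and 273 in C2, and macrophage-like barcodes 628 and 228. The order of libraries, C1 above C2 and C4 above C3, was the same in each of these 4 classes in which both were measured, with no overlap of intervals. In the smaller monocyte-like class C1 was above C2 as well, while the C3 and C4 intervals overlapped (69.3 to 96.2 and 78.3 to 138 CPM). The ratio of C1 to C3 was 105 in Cd3+ and 97.7 in B-like barcodes. With the 2 clusters led by a marker of another class left out, the Cd3+ levels were 516 CPM in C1, 171 in C2 and 24.7 in C3, so that the size of the difference depends on which T cells are counted.

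Nr4a2 differed by class as well as by library. In Cd3+ barcodes its level was 257 CPM (241 to 274) for C1, 407 (398 to 416) for C2, 26.8 (25.5 to 28.1) for C3 and 22.8 (20.9 to 24.7) for C4. NK-like barcodes gave 338 CPM in C1 and 185 in C2. B-like barcodes were low in each library, at 9.16 CPM (1.89 to 26.8, 3 UMIs) for C1, 6.72 for C3 and 7.91 for C4, with intervals that overlap. The 6 T markers summed to 6.11, 297 and 53.2 CPM in the B-like barcodes of C1, C3 and C4. The C1 value of Nr4a2 in B-like barcodes stands beside an Nr4a1 level of 1698 CPM in the same 61 barcodes.

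In macrophage-like barcodes Nr4a2 was at 24.1 CPM (21.9 to 26.5) in C1 and 84.2 (76.1 to 92.9) in C2. The T markers, of which all 6 were above 0, summed to 74.0 CPM in the C1 and 566 CPM in the C2 macrophage-like barcodes. With only the 428 of 496 C2 barcodes that carried at most 1 UMI of Cd3d, Cd3e, Cd3g and Trac together, and likewise for Cd79a and Ms4a1, Nr4a2 was at 36.3 CPM, against 20.03 in C1 by the same rule, a difference under 2-fold. With a class given to each barcode instead of each cluster the levels were 22.9 CPM for C1 and 50.04 for C2. Clusters differed in direction. In macrophage cluster 13, which holds most of the C2 class, Nr4a2 had 126 CPM for C1 and 95.4 for C2. In cluster 10 it was at 6.62 and 81.1 CPM (11 and 25 UMIs), and in cluster 4, which holds most of the C1 class, at 18.1 and 8.95 (271 and 5 UMIs). The C2 class was thus the higher in each view over the whole class, by a ratio that depended on barcodes with T markers and on the makeup of clusters.

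Of the 4 classes, Nr4a3 had its highest level in Cd3+ barcodes in C1, C3 and C4, while in C2 the Cd3+ and NK-like intervals overlapped. Its level in Cd3+ barcodes was 234 CPM (218 to 250) for C1, 56.2 (52.9 to 59.7) for C2, 10.5 (9.71 to 11.3) for C3 and 18.5 (16.9 to 20.3) for C4. NK-like barcodes gave 91.2 and 49.1 CPM and macrophage-like barcodes 51.8 and 30.7 in C1 and C2. Monocyte-like barcodes gave 58.6, 63.1, 13.2 and 14.1 CPM in C1 to C4, with intervals that overlap those of Cd3+ barcodes in C2, C3 and C4. Like Nr4a1 it ran from C1 down to C2 in these 3 classes, but like Nr4a2 it was low in B-like barcodes, with 18.3 CPM (6 UMIs) for C1, 3.11 for C3 and 1.83 for C4.

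Egr1 was highest in macrophage-like barcodes. Its level there was 3127 CPM (3101 to 3153) in C1 and 652 (629 to 676) in C2. Cd3+ barcodes gave 211 CPM (197 to 227) for C1, 67.4 (63.8 to 71.1) for C2, 28.0 (26.7 to 29.3) for C3 and 69.9 (66.6 to 73.2) for C4. Egr1 in Cd3+ barcodes of C2 and C4 thus had overlapping intervals, although Nr4a1 differed between the same barcodes (271 and 41.2 CPM). This overlap depended on the grouping: without the 2 clusters led by another marker Egr1 was at 122, 57.0, 55.3 and 74.1 CPM in C1 to C4, and with a class per barcode at 79.0 in C2 and 69.6 in C4. NK-like barcodes gave 134 CPM in C1 and 55.9 in C2, and B-like barcodes 971 for C1, 90.6 for C3 and 94.3 for C4, where the last 2 overlap.

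Egr2, whose product restrains T cell activation, was low in Cd3+ barcodes of each library. Its level was 12.7 CPM (9.33 to 17.0) for C1, 9.73 (8.39 to 11.2) for C2, 6.22 (5.63 to 6.86) for C3 and 9.38 (8.21 to 10.7) for C4. Only C3 lay apart from the other 3 libraries, whose intervals overlap. This turned when the 2 clusters led by another marker were left out: C3 was then at 16.6 CPM, above C2 at 7.82 and C4 at 10.3 and beside C1 at 17.3. Macrophage-like barcodes held 48.4 CPM in C1 and 29.2 in C2, B-like barcodes 58.0 in C1 (19 UMIs), 7.38 in C3 and 8.14 in C4, and NK-like barcodes 5.22 and 9.01 in C1 and C2.

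Egr3 was higher in B-like than in Cd3+ barcodes, taken as whole classes, in each library described for both. In Cd3+ barcodes it was at 7.76 CPM (5.16 to 11.2) for C1, 1.55 (1.05 to 2.22) for C2, 1.97 (1.64 to 2.34) for C3 and 4.35 (3.57 to 5.25) for C4. B-like barcodes held 61.1 CPM (37.3 to 94.3) for C1, 14.6 (11.7 to 17.95) for C3 and 22.2 (19.2 to 25.6) for C4. In C3 and C4 B-like cluster 3 held 24.5 and 24.8 CPM, while B-like cluster 14 held 5.62 and 5.95 (18 and 7 UMIs). Cd3+ cluster 6 held 9.63 and 7.82 CPM in the same libraries, above cluster 14 with intervals that overlap. The difference in C3 and C4 thus did not hold between all clusters of the classes. Macrophage-like barcodes held 19.7 and 13.2 CPM and NK-like barcodes 3.57 and 4.97 in C1 and C2, and the NK-like intervals overlap.

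**Figure D1:**
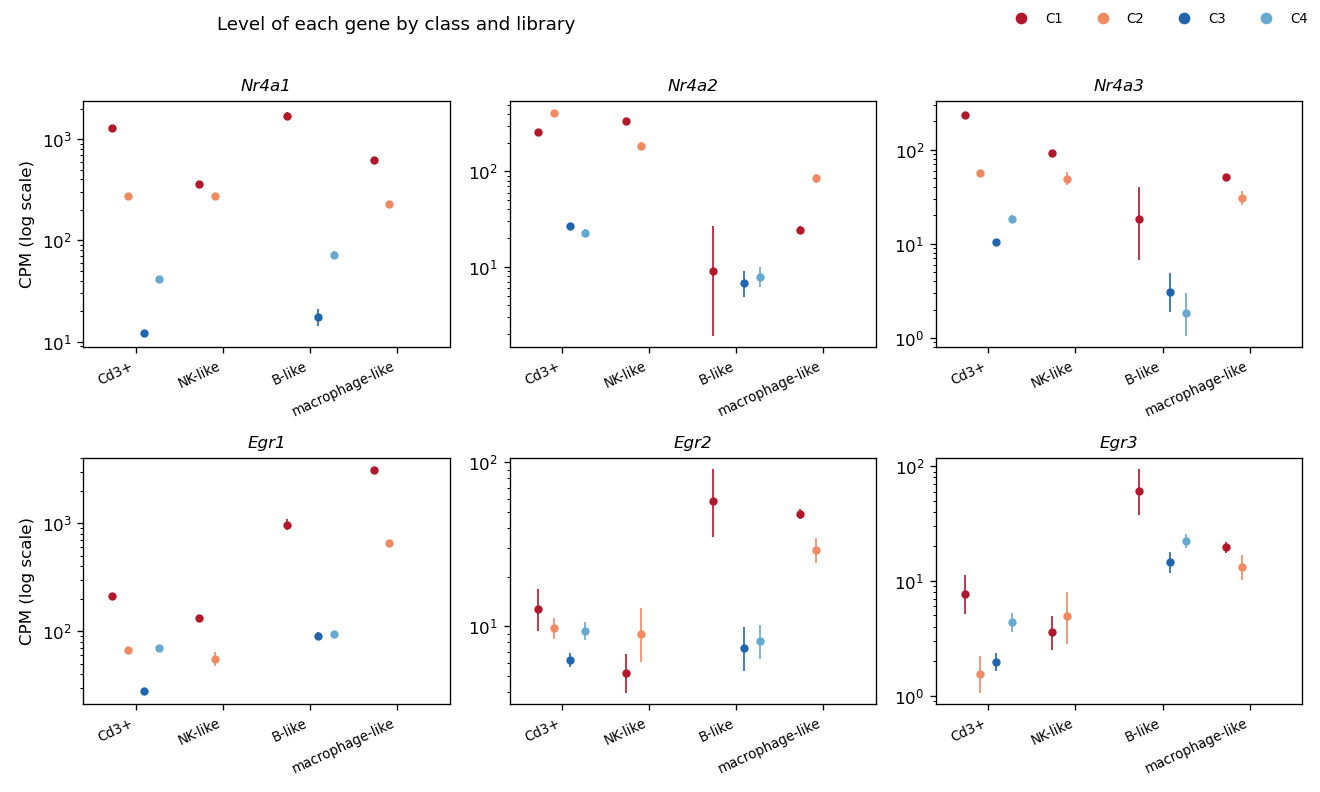
CPM (log axis) of each gene by class, with 1 point per library and bars for the exact 95% Poisson interval of counting error; classes with under 50 barcodes in a library are not drawn. Nr4a1 separates the libraries in each class (12.2 to 1283 CPM in Cd3+ barcodes), Nr4a2 separates Cd3+ and NK-like from B-like barcodes, and Egr1 peaks in macrophage-like barcodes at 3127 CPM in C1.

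Genes that move alike in every class were counted by a ratio of at least 2 between libraries, among genes with at least 50 UMIs in the pair. Shares over all genes stand beside the counts of the main setting only, so counts under other settings are no result about the 6 genes. C1 was at least 2-fold above C2 for 4 of the 6 genes in Cd3+ barcodes (5.26% of all genes tested), namely Nr4a1 (4.73), Nr4a3 (4.16), Egr1 (3.14) and Egr3 (4.995). In NK-like barcodes this held for 1 of 6 (2.3% of all genes), Egr1, and in macrophage-like barcodes for 2 of 6 (4.71%), Nr4a1 and Egr1. Egr1 alone was past 2-fold in all 3 classes, with 3.14 in Cd3+, 2.40 in NK-like and 4.79 in macrophage-like barcodes. Over all genes, 0.247% of 8916 did so. Nr4a1 and Nr4a3 lay above 1 in all 3 classes but reached only 1.31 and 1.86 in NK-like barcodes. Without the 5% of barcodes with the highest doublet scores the NK-like count was 3.

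Lower in C1 than in C2 by at least 2-fold was 1 of 6 genes in macrophage-like barcodes (6.39% of all genes), Nr4a2 at a ratio of 0.287, and 0 of 6 with at most 1 UMI of other classes' markers. None of the 6 was lower in Cd3+ (7.16% of all genes) or NK-like barcodes (1.21%), and so none in all 3 classes (0.269%). Nr4a2 was the only one of the 6 below C2 in C1 in Cd3+ barcodes, at 0.632, and C1 was above C2 in NK-like barcodes, at 1.82.

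Between C3 and C4, C3 was mostly the lower. In Cd3+ barcodes C3 was at least 2-fold below C4 for 3 of 6 genes (4.13% of all genes), Nr4a1 (0.296), Egr1 (0.400) and Egr3 (0.452). In B-like barcodes this held for 1 of 6 (3.3%), Nr4a1 (0.240), which was thus the 1 gene of 6 past 2-fold in both classes (0.436% of all genes). None of the 6 was at least 2-fold higher in C3 in Cd3+ (6.24% of all genes) or B-like barcodes (4.39%), or in both (1.2%). Without clusters led by a marker of another class, which takes out cluster 0 with most Cd3+ barcodes of C3, the count of 3 became 0.

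C1 was at least 2-fold above C3 for all 6 genes in Cd3+ barcodes (11.4% of all genes) and for 4 in B-like barcodes (6.59%). The 4 were past 2-fold in both classes (2.12% of all genes): Nr4a1, Egr1, Egr2 and Egr3. Nr4a2 and Nr4a3 had too few UMIs in B-like barcodes to be tested. Egr2 was at the edge in Cd3+ barcodes, at 2.05. None of the 6 was lower in C1 in Cd3+ (7.23% of all genes) or B-like barcodes (15.4%), or in both (1.68%). With the clusters led by another marker left out, 2 genes were past 2-fold in both.

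Within single clusters, which hold more alike barcodes than a class, the C1 to C2 ratios of Nr4a1, Nr4a3 and Egr1 in Cd3+ barcodes were smaller. In Cd3+ cluster 2 they were 3.02 for Nr4a1, 3.04 for Nr4a3, 2.19 for Egr1 and 0.816 for Nr4a2, beside a median of 0.952 over all genes tested. In Cd3+ cluster 8 they were 1.76, 2.43, 1.87 and 1.04. Nr4a1, Nr4a3 and Egr1 were thus above 1 and Nr4a2 near 1 in both Cd3+ clusters. Egr1 was above C2 in C1 in each of the 6 clusters with both libraries, from 1.85 in macrophage cluster 4 to 4.36 in macrophage cluster 10. Nr4a1 was so too, from 1.31 to 3.02.

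The summed early response list, which holds none of the 6 genes, moved with them. In the same 6 clusters its C1 to C2 ratio was 1.48 to 2.55. Between C3 and C4, Nr4a1 lay below 1 in each of 5 shared clusters, from 0.337 in B-like cluster 3 to 0.573 in Cd3+ cluster 0, while the list lay between 0.734 and 0.969. The part of handling in these differences was not tested, since no library is tied to a protocol.

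**Figure D2:**
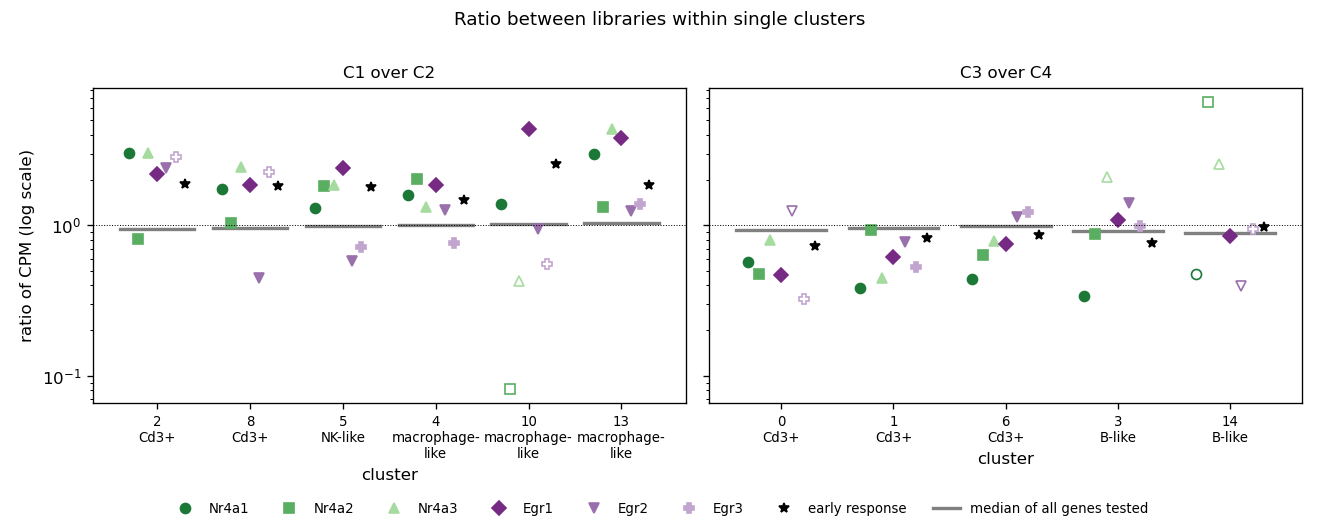
Ratio of CPM (log axis) between C1 and C2 (left) and between C3 and C4 (right) within clusters that both libraries share; open symbols have under 50 UMIs in the pair, stars are the summed early response list and grey lines the median of all genes tested in that cluster. Egr1 lies above 1 in the 6 clusters on the left, and Nr4a1 below 1 in the 5 clusters on the right.

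Class-led genes were those with a CPM in 1 of the 4 classes at least 3-fold above the next of them in the same library, with at least 50 UMIs in the leading class. Egr2 and Egr3 in C1 and Egr2 in C3 had fewer there and could not be called. In C1 this was 1 of 6 (11% of all genes), Egr1, which macrophage-like barcodes led 3.22-fold. In C2 it was again 1 of 6 (14.2%), Egr1, led 9.68-fold by macrophage-like barcodes, with Egr2 just short at 2.998. In C4, where Cd3+ and B-like barcodes were compared, 2 of 6 were led (18.4%): Nr4a3 by Cd3+ barcodes, 10.1-fold, and Egr3 by B-like barcodes, 5.11-fold. In C3, with the same 2 classes, 4 of 6 were led (18.8%): Nr4a2 (3.98) and Nr4a3 (3.37) by Cd3+ and Egr1 (3.24) and Egr3 (7.42) by B-like barcodes. Most of these leads rest on leaving out the monocyte-like class, which has 50 to 156 barcodes per library. With it counted, Egr1 was still led by macrophage-like barcodes in C1 (3.22, 8.42% of all genes), but only 1.72-fold in C2, where monocyte-like barcodes led Nr4a1 3.62-fold (8.34%). In C3 the 2 led genes were Nr4a1 by monocyte-like (4.72) and Egr3 by B-like barcodes (14.3%), and no lead of Cd3+ barcodes was left. In C4 Egr3 by B-like barcodes was the 1 led gene, at least 3.67-fold (11.6%), and Nr4a3 in Cd3+ barcodes stood 1.31-fold above the monocyte-like level. Egr3 led by B-like barcodes, as a whole class, was thus found in C3 and C4 under both sets of classes. With 6 genes, these counts are too small to be set apart from the shares over all genes.

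The share of barcodes with a UMI was compared after thinning each barcode to 3294 UMIs and leaving out shallower ones. This took out 50, 415, 508 and 227 Cd3+ barcodes of C1 to C4, and 56 and 14 NK-like and 294 and 115 macrophage-like barcodes of C1 and C2. Of B-like barcodes it took out 12 of 61 in C1, 84 of 733 in C3 and 501 of 1935 in C4. Nr4a1 was then found in 72.4% of Cd3+ barcodes of C1 (68.6 to 76.0%, exact Clopper-Pearson 95% interval), 32.9% of C2, 2.71% of C3 and 9.57% of C4. Without thinning the shares were 78.2, 40.2, 5.68 and 14.8%. Median depths of Cd3+ barcodes were 5458, 4949, 8257 and 6095 UMIs in C1 to C4, so that the lowest share stood in the deepest library.

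Egr1 was found in 93.9% of macrophage-like barcodes of C1 and 56.2% of C2 after thinning (92.1 and 63.1% without), against 31.5 and 14.0% of Cd3+ barcodes (41.2 and 19.9% without). Nr4a2 was found in 36.4% of Cd3+ barcodes of C1 and 52.1% of C2, in 52.9 and 36.8% of NK-like, but in 4.94 and 14.2% of macrophage-like barcodes; without thinning these were 44.6, 59.7, 70.8, 55.1, 8.12 and 22.6%. The low macrophage shares of Nr4a2 thus stood in barcodes deeper than Cd3+ barcodes of the same libraries, with median depths of 6377 and 8746 UMIs.

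None of the 4 classes is known to lack these genes, so free RNA was set against barcodes of at least 50 and under 200 UMIs, below the filter for cells. There Egr1 gave 300.2 CPM for C1 and 70.6 for C2, and Nr4a1 at 80.5 and 38.5. The salivary genes in Cd3+ barcodes reached 2.08% of their level in such barcodes in C1 and 5.88% in C2. Free RNA at such shares was subtracted as an alternative, which moved no level of C1, C2 or C3 by over 1.5 times. The exception was Nr4a3 in B-like barcodes of C4, which went from 1.83 to 0.880 CPM. This shift is within counting error, since the low barcodes of C4 held 1 Nr4a3 UMI among 85736 UMIs (11.7 CPM). The salivary genes there stood at the same 11.7 CPM, so the share of 8.84% for B-like barcodes of C4 is as uncertain.

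Cd3+ barcodes were split by UMIs of Foxp3, Cd4, Cd8a and Cd8b1, and further by inhibitory receptor genes (checkpoint, at least 2 of Pdcd1, Lag3, Havcr2, Tigit and Ctla4) and by Ccl5 or Cxcr6 (effector-type). Deeper barcodes pass such gates more easily. Subsets of at least 50 barcodes are described.

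Nr4a2 was high in CD8 checkpoint barcodes. It was at 482 CPM there in C2 (1919 barcodes) against 214 in CD8 effector-type barcodes (277), and at 73.2 in C3 (437) against 15.8 (4775). In C1 the values were 387 CPM in 77 and 335 in 105 barcodes. Nr4a2 was thus higher in the checkpoint subset by more than counting error in C2 and C3, and not clearly so in C1. With 2 UMIs required per gating gene the values were 515 and 308 CPM in C2 and 63.5 and 17.4 in C3, and after thinning 496 and 263 and 101 and 15.98, the same order. In CD4 barcodes Nr4a2 was at 320 CPM in checkpoint and 125 in effector-type barcodes of C2, and at 74.1 and 49.5 in C3. With 2 UMIs per gating gene these were 325 and 232 in C2 and 67.3 and 90.8 in C3, so that the CD4 order in C3 turned with the gate.

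Nr4a1 had the other order in C2, with 159 CPM in CD8 checkpoint and 304 in CD8 effector-type barcodes. The early response list ran the same way there, with 5842 CPM in checkpoint and 8917 in effector-type barcodes. In C3 Nr4a1 was at 14.1 CPM in checkpoint and 6.92 in effector-type barcodes, and the list at 2869 and 3276. Gated after thinning the C3 values of Nr4a1 were 21.9 and 6.67. In C1 Nr4a1 was at 484 and 573 CPM, with intervals that overlap, as those of Nr4a2 did. The order of the 2 subsets thus differed between Nr4a1 and Nr4a2 in C2, did not in C3, and could not be told in C1.

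Barcodes with Foxp3, the factor that defines regulatory T cells, were high in Nr4a1. Their level was 1160 CPM in C2 (84 barcodes), 36.9 in C3 (100) and 117 in C4 (238), against 311, 44.9 and no value in CD4 checkpoint barcodes. In C4 the CD8 effector-type level was 9.74 CPM, below the Foxp3 level. In C2 the Foxp3 level lay above each other subset described, the next being CD4 effector-type barcodes at 589 CPM. In C3 the CD4 checkpoint level (44.9) lay above it.

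Egr2 and Egr3 also stood high in Foxp3 barcodes of C4. Egr2 was at 37.7 CPM there, against 1.95 in CD8 effector-type barcodes, and Egr3 at 10.3 against 2.19. In C3 Egr2 was highest, of the subsets described, in CD4 checkpoint barcodes, at 33.2 CPM, with 9.84 in Foxp3 and 1.56 in CD8 effector-type barcodes. Egr2 in CD8 effector-type barcodes was thus low in C3 and C4, while the order of Foxp3 and CD4 checkpoint barcodes could not be set side by side in C4. It was not low in those of C1, at 22.9 CPM (12.8 to 37.8, 15 UMIs). That was the highest value of the C1 subsets described, with intervals that overlap. In C2 Egr2 was at 7.50 CPM in CD8 effector-type and 7.54 in CD8 checkpoint barcodes.

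By cluster, Egr2 was at 29.1 CPM in C3 and 25.7 in C4 in cluster 6, whose leading genes Izumo1r, Tnfrsf4 and Foxp3 mark follicular helper and regulatory T cells. It was at 1.02 and 0.824 CPM (44 and 2 UMIs) in cluster 0, led by Gzmm and Ly6c2. Of the 402 Egr2 UMIs in Cd3+ barcodes of C3, 218 came from the 1120 barcodes of cluster 6. The low Egr2 level of C3 Cd3+ barcodes therefore sits beside 4544 barcodes in cluster 0.

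The gate of the gamma-delta-type barcodes used none of the innate lymphoid markers. These barcodes held a Trdc, Trgc or Cd163l1 UMI and no Trac, Cd4, Cd8a, Cd8b1 or Foxp3 UMI, and were few. The 50 in C1 held Nr4a1 at 2939 CPM, Egr1 at 489 and the early response list at 35266 CPM, the highest of the C1 subsets described in each case, and the 67 in C4 held Nr4a1 at 27.5.

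**Figure D3:**
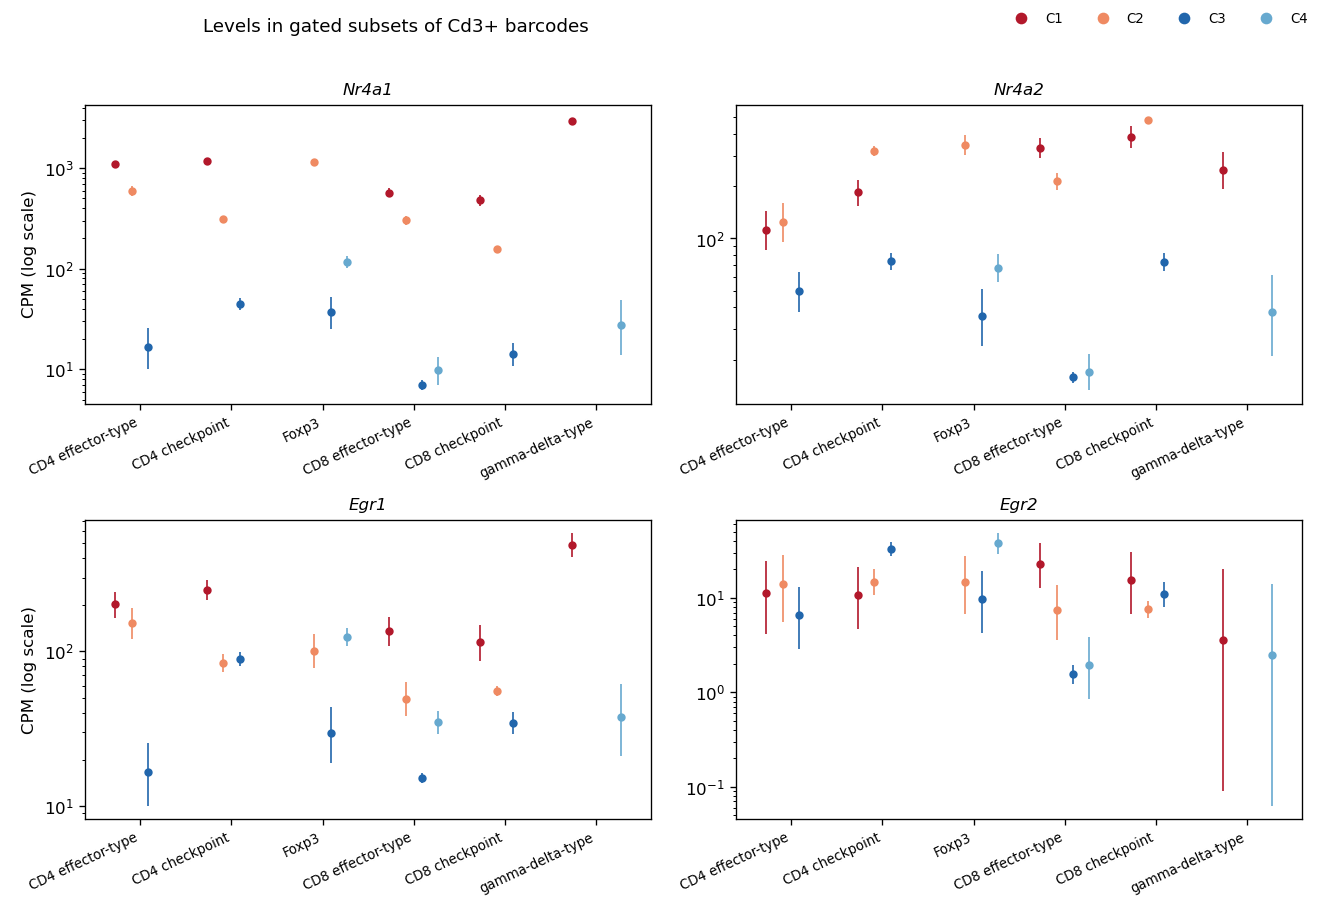
CPM (log axis) of Nr4a1, Nr4a2, Egr1 and Egr2 in gated subsets of Cd3+ barcodes, 1 point per library with the exact 95% Poisson interval, for subsets of at least 50 barcodes. Nr4a2 is at 482 CPM in CD8 checkpoint barcodes of C2. Egr2 is at 22.9, 7.50, 1.56 and 1.95 CPM in CD8 effector-type barcodes of C1 to C4.

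Detection of the genes in the same barcode was counted at equal depth. Of Cd3+ barcodes, 10.7% for C1, 26.1% for C2, 82.95% for C3 and 71.3% for C4 held none of the 6 genes, and 30.6, 8.91, 0.703 and 1.42% held at least 3. Of macrophage-like barcodes, 4.19% in C1 and 24.7% in C2 held none. Barcodes with none of the 6 were thus few in C1 and most in C3.

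Egr2 and Egr3 were counted together with other EGR genes. In Cd3+ barcodes of C3, Egr2 was found in 12.3% of barcodes with Egr1 (9.32 to 15.8%) and in 0.504% of those without. Egr3 was found in 20.0% of Egr2 barcodes in C3 (17 of 85) and 20.6% in C4 (14 of 68), against 0.290 and 0.837% of the others. In B-like barcodes of C4 Egr3 was found in 46.7% of Egr2 barcodes (14 of 30), against 5.98%. In macrophage-like barcodes of C1, which hold the most Egr2 barcodes (271), Egr3 was found in 8.12% of them (5.16 to 12.0%), against 5.36% of the others, inside the interval. Egr2 and Egr3 were thus found together above the share in other barcodes in Cd3+ barcodes of C3 and C4 and B-like barcodes of C4, and not clearly so in macrophage-like barcodes of C1. Pairs were counted over whole classes, not within clusters. Cluster 6 held 218 of the 402 Egr2 and 72 of the 127 Egr3 UMIs in Cd3+ barcodes of C3. The part of such differences between clusters in the joint shares was not tested.

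Whether Nr4a1 and Nr4a2 came together differed by class and library. Nr4a2 was found in 36.0% of Nr4a1 barcodes and 37.4% of the others in Cd3+ barcodes of C1, and in 51.3 and 52.5% in C2. In C3 the shares were 15.3 and 7.19%, and in NK-like barcodes of C1 57.5 and 49.5%. In macrophage-like barcodes they were 6.18 and 3.38% in C1 and 21.4 and 9.75% in C2. The C2 macrophage-like class carried T markers at 566 CPM, and barcodes with T markers were not taken out for this count. Nr4a3 was found in 22.5% of Nr4a1 barcodes of C2 (Cd3+) and in 10.1% of the others.

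**Figure D4:**
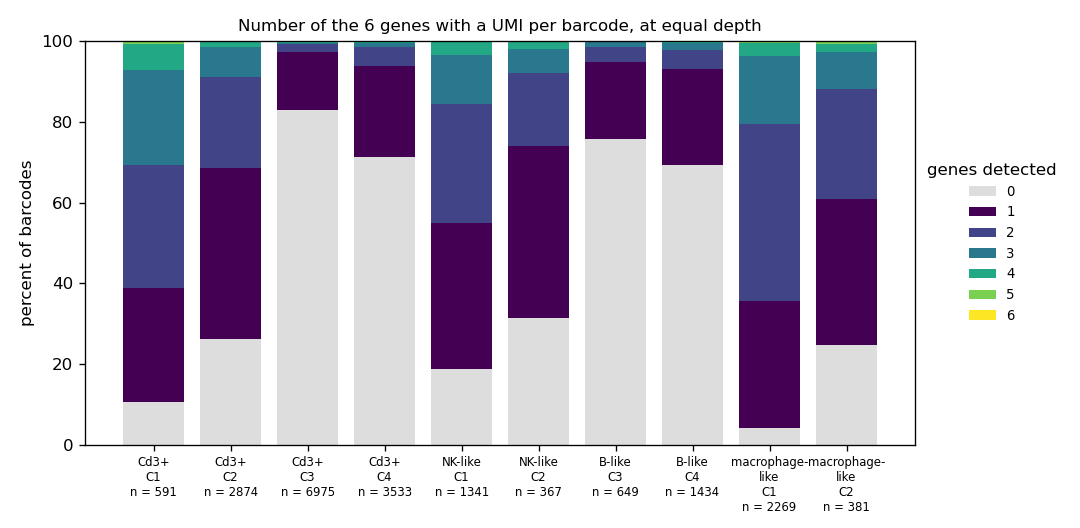
Percent of barcodes by how many of the 6 genes had a UMI, after thinning each barcode to 3294 UMIs, for each class and library with at least 50 barcodes left; n is the number of barcodes. Cd3+ barcodes with none of the 6 make up 10.7% in C1 and 82.95% in C3.

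Lists of related genes were set beside the 6. Of the 17 early response genes, 15 were at least 2-fold higher in C1 than in C2 in Cd3+ barcodes (5.26% of all genes). In NK-like barcodes 8 were (2.3%) and in macrophage-like barcodes 12 (4.71%). None was lower in these 3 classes (7.16, 1.21 and 6.39% of all genes). The median ratios were 3.36, 1.88 and 2.21, against 0.971, 0.997 and 0.911 over all genes. The list's summed level in Cd3+ barcodes was 21852, 7343, 3588 and 5203 CPM in C1 to C4, the order of Nr4a1. Junb, a subunit of the AP-1 factor, gave 5998 CPM for C1 and 1786 for C2, and the heat shock gene Hspa1a gave 114 and 18.3 CPM. Hspa1a reached 1867 CPM in macrophage-like barcodes of C1, against 168 in C2.

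NR4A factors are known to control many of the 9 genes of the inhibitory receptor list in T cells. In their sum the 9 genes ran against Nr4a1 between C1 and C2 and between C3 and C4, and with it between C1 and C3. In Cd3+ barcodes their sum was 1047 CPM for C1, 2628 for C2, 335 for C3 and 209 for C4. Of the 9, 8 were at least 2-fold lower in C1 than in C2 (7.16% of all genes) and none was higher, and the median ratio was 0.198. In C3, 7 were at least 2-fold higher than in C4 (6.24% of all genes) and none was lower. In C1, 4 were at least 2-fold higher than in C3 (11.4% of all genes) and none was lower. Pdcd1 and Lag3, which lead the main Cd3+ cluster of C2, are on this list. Tigit was at 99.5 and 502 CPM in C1 and C2, Tox at 74.5 and 329, and Havcr2 at 18.6 and 156, while Ctla4 was at 621 and 410. Nr4a2 ran in the same direction as Tigit and Tox between C1 and C2 in Cd3+ barcodes as a whole (257 and 407 CPM). Within Cd3+ clusters 2 and 8 its C1 to C2 ratio was 0.816 and 1.04. In NK-like barcodes the directions differed, with Nr4a2 at 338 and 185 CPM, Tigit at 233 and 380 and Tox at 129 and 214. Between C3 and C4, in Cd3+ barcodes, Nr4a2 (26.8 and 22.8 CPM) and Tigit (57.6 and 9.70) were higher in C3. Tox (66.3 and 81.1) was higher in C4.

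The T cell receptor response list summed to 4347, 2842, 1309 and 1321 CPM in C1 to C4. In Cd3+ barcodes 4 of its 13 genes were at least 2-fold higher in C1 than in C2 (5.26% of all genes). Lower was 1 of the 13 (7.16% of all genes). Bhlhe40, a factor of effector T cells, was at 995, 519, 71.7 and 17.99 CPM, and Cd69, a receptor that retains cells in tissue, at 897, 476, 343 and 284. Dusp2, a MAP kinase phosphatase, was at 1004, 789, 281 and 297.

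Partners of the 2 families had no common pattern. Among the retinoid X receptors, with which Nr4a1 and Nr4a2 can pair, Rxrb was at 27.4 to 37.0 CPM in Cd3+ barcodes of all libraries, while Rxra gave 9.98 CPM for C1 and 2.38 for C2, and Rxrg was nearly absent (at most 0.277 CPM). Of the 6 EGR partners and relatives, none of 5 tested was 2-fold higher in C1 than in C2 (5.26% of all genes). Lower was 1 of the 5 (7.16% of all genes). Nab1, which represses EGR proteins, was at 99.2, 221, 90.7 and 63.7 CPM in C1 to C4, and Srf, the serum response factor, at 24.4, 29.6, 23.8 and 29.7. Of 7 genes linked to EGR-driven anergy 2 were at least 2-fold higher in C1 than in C2 (5.26% of all genes). Rnf128 (GRAIL) was at 25.8, 5.07, 1.67 and 0.604 CPM, and Cblb at 129, 216, 71.8 and 92.6.

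Across 15 class and library pairs, the gene whose log2(CPM + 1) went most like that of Egr1 was Ccnl1 (Pearson r = 0.953), followed by Gm37305. For Nr4a1 they were Srgn (0.908), Csrnp1 and Selenok, and for Nr4a3 they were Fosl2 (0.947), Tnfaip3 and Junb. For Nr4a2 they were Elf4 (0.938), Slc25a24 and Ttc39c, for Egr2 Gm37305 (0.860), Rilpl2 and CAAA01118383.1, and for Egr3 Ripk2 (0.915), P2ry10b and Sde2. Among the 6 genes, Egr2 and Egr3 had r = 0.85 and Nr4a2 and Nr4a3 r = 0.83, while Nr4a2 and Egr1 had r = -0.06. The 15 points share 4 libraries and 5 classes, so these values are a description only.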

How the data were processed

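The authors deposited raw UMI counts for each gene and barcode, without normalization, in matrices that Cell Ranger 4 wrote, per the file headers. The submitters' processing notes name mm10, STAR 2.7.10a and Cell Ranger 6.1.2. The design text names 10x and the labels' protocols a BD Rhapsody workflow; barcodes have 16 bases. The members, lists and tests were chosen with earlier results of these data known.

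Barcodes passed with 500 or more UMIs, 300 or more genes and no more than 10% mitochondrial UMIs, and doublets were called per library with Scrublet (scanpy 1.11.5). The 4 libraries were clustered together on 2000 variable genes, without the 6 genes and the early response list, by Leiden at resolution 1 (leidenalg 0.10.2) over 15 neighbours in 30 components, without batch integration. A cluster took the class with the highest scaled marker mean, of at least 0.5, with at least 3 markers each in 10% of its barcodes. The T class was grouped by its Cd3 genes after clusters had been seen, as were the views within single clusters, with the monocyte-like class counted and with at most 1 UMI of other classes' markers.

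UMIs were summed per class and library. A ratio needed 50 UMIs in the pair, and a count of 0 was set to 3. Intervals and floors cover counting error only. Genes of the lists were named by a rule (the 3 of highest median level in T cells and the 1 of largest ratio), and the genes of most similar profile were named, up to 3 per member. Barcodes of the Cd3+ class outside the subsets described, and 1 gene of a similar profile, are not reported here. The ratio count was tested on simulated data. Sequences and positions come from RefSeq (GRCm38.p6). The alternatives were a stricter UMI, mitochondrial or doublet filter, no doublet removal, the early genes kept for clustering, a finer clustering, a class per barcode, means over barcodes, free RNA subtracted, other ratio thresholds and other gates. Further tools were numpy 2.4.6, pandas 2.3.3, scipy 1.17.1, matplotlib 3.10.9 and scikit-learn 1.9.0, under Python 3.11.15.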

Additional observations from a re-analysis of the deposited data

How the results depend on the processing

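No paired analysis was possible because each library stands alone and no label ties it to a group. The share of all genes called is given above only for the main settings and with the monocyte-like class counted. The other counts below therefore show how the calls depend on the setting, and are no result about the 6 genes. Counts of the 6 genes between C1 and C2 moved as follows. The NK-like count of 1 became 3 without the 5% of barcodes with the highest doublet scores and at a ratio of 1.5, and 0 at a ratio of 3. The macrophage-like count of 2 became 4 at a ratio of 1.5 and 1 at a ratio of 3, and the count in all 3 classes went from 1 to 2 and to 0. Lower in C1, the counts in Cd3+ and NK-like barcodes went from 0 to 1 at a ratio of 1.5, and the macrophage-like count from 1 to 0 with at most 1 UMI of other classes' markers.

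For C3 below C4, the Cd3+ count of 3 became 5 at a ratio of 1.5 and 1 at a ratio of 3, and the B-like count and the count in both classes went from 1 to 2 at a ratio of 1.5. Without clusters led by another class's marker the Cd3+ count became 0, the count in both classes 0, that of C3 above C4 in Cd3+ barcodes 1, and that of C1 above C3 in both classes 2. Class-led genes in C1 went from 1 to 2 with at least 1000 UMIs, at resolution 2 and at a threshold of 2. In C2 they went from 1 to 2 without the highest doublet scores, without clusters led by another marker and with free RNA subtracted, to 3 with means over barcodes and to 4 at a threshold of 2. With the monocyte-like class counted, an alternative chosen after seeing the data, they went from 4 to 2 in C3 and from 2 to 1 in C4.

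Levels by class moved by over 1.5 times in 11 of 66 values without clusters led by another marker, in 2 without doublet removal, and in 1 each with a class per barcode, with free RNA subtracted and with at most 1 UMI of other classes' markers. The T subset levels moved so in 13 of 96 with 2 UMIs per gating gene and in 13 gated after thinning. B-like barcodes of C1 were under 50 at 1000 UMIs and at resolution 2, which give no value there. The cause of these shifts was not tested. Depth limits Egr2 and Egr3 most, and Nr4a2 and Nr4a3 in B-like barcodes of C1, with 3 and 6 UMIs.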

Other observations

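Monocyte-like barcodes numbered 97 for C1, 106 for C2, 156 for C3 and 50 for C4. Above, they enter the counts of class-led genes, the levels of Nr4a1 and Nr4a3 and the correlations across class and library pairs. Their cluster is led by Chil3, a monocyte marker, and Fscn1, a dendritic marker. At resolution 2, 42 of the C1, 36 of the C2, 83 of the C3 and 32 of the C4 barcodes lay in a dendritic-like class, so that the makeup differs between libraries and the levels below are of a mixture. Nr4a1 was at 1580 CPM there for C1, 990 for C2, 82.0 for C3 and 105 for C4, where the last pair overlaps within counting error. Egr1 was at 727, 379, 61.6 and 76.7 CPM, below its macrophage-like level in C1 and C2. Egr2 gave 93.8 CPM for C1 and 55.5 for C2, above the macrophage-like levels of 48.4 and 29.2 with intervals that do not overlap, and at 4.401 in C3 (8 UMIs). Nr4a2 was at 124, 125, 29.7 and 66.6 CPM. The macrophage-like barcodes of C1 also carried erythroid markers at 353 CPM in sum, against 0.426 in C2.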
